A study of Mus musculus with 6 samples.

Results

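The aldehyde dehydrogenases described here are 10 genes of one enzyme family, chosen by symbol from the 17691 genes of both deposited tables. They are Aldh3b1, Aldh3a2, Aldh2, Aldh1b1, Aldh4a1, Aldh6a1, Aldh7a1, Aldh9a1, Aldh16a1 and Aldh18a1. Aldh3b1 was singled out because it rose within the numbered pairs of these same libraries, so its difference between groups is given as a description and supports nothing. Polyadenylated RNA was sequenced from erythroblasts, which are immature red blood cells that still have a nucleus, isolated from fetal liver of C57BL/6J mice. All 6 libraries come from cells sorted as negative for TER119, which marks more mature erythroid cells, and kept for 30 h in medium with erythropoietin (Epo), the hormone that drives red cell production. In 3 libraries the cells were untreated, and in 3 they received carbon dots (CDs, carbon nanoparticles made from the plant Codonopsis pilosula) at 1 ug/ml over those 30 h. The labels give no age of the fetuses and do not say whether replicates were separate cultures, so each p-value speaks only to the variation among these 6 libraries, some or all of which may be technical.

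Aldehyde dehydrogenases oxidise aldehydes to carboxylic acids with NAD+ or NADP+ as the acceptor, and so remove reactive aldehydes that form in metabolism and lipid peroxidation. Some members act on aldehydes that reach the cell from outside or from membrane lipids, others on semialdehydes within the breakdown or synthesis of proline, valine, lysine and carnitine. In blood-forming cells Aldh2, together with the Fanconi repair pathway, protects stem and progenitor cells from DNA damage by aldehydes.

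Library totals ran from 17695997 to 20066581 expected counts, and 12283 genes passed the filter on low counts, all 10 members among them. Erythroid markers (12 of 12 in the tables) summed to between 57700 and 74500 CPM (counts scaled to a common library total) in every library. The sum was lowest in number 3 of each group, at 62400 CPM untreated and 57700 CPM with CDs. Libraries of both groups were spread along a single axis. This axis, the first principal component of log2 CPM without the 10 genes, held 86.6% of the variance. Untreated libraries 1 to 3 scored -91.9, -47.5 and 77.0 on it, and the CDs libraries -53.1, 16.9 and 98.6. Macrophage markers (20 of 20 in the tables, all above 0 in at least 1 library) summed to 208, 607 and 5480 CPM in untreated and 481, 2010 and 7140 CPM in CDs libraries along the same axis. Of the 17 tested macrophage markers, 16 were higher in the CDs library of all 3 pairs, against 30.2% of all genes tested. Spic was at 0 in 2 libraries and Timd4 in 1. Granulocyte markers (12 of 12 in the tables) spanned 276 to 2130 CPM untreated and 393 to 2200 CPM with CDs, and stem and progenitor markers (8 of 8) 40.3 to 333 and 67.1 to 353 CPM. Because these are bulk samples, more cells of a type and more RNA per cell cannot be told apart.

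Aldh3b1 was higher in every CDs library than in every untreated one, and no other member showed that. The gene encodes an enzyme that oxidises medium- and long-chain aliphatic aldehydes, including products of lipid peroxidation (Entrez 67689, chromosome 19, 3913491 to 3930898, minus strand, GRCm38.p6). Its level was 51.8, 44.6 and 24.5 CPM in untreated 1 to 3 and 165, 133 and 63.4 CPM in CDs 1 to 3, from 502 to 2888 counts per library. The groups did not overlap, although the lowest CDs library (number 3) was only 0.29 log2 units above the highest untreated one (number 1). Within pairs the CDs library was 3.19-fold, 2.98-fold and 2.58-fold higher. The mean was 40.3 ± 14.1 CPM without and 120 ± 52.0 CPM with CDs (SD, n = 3 each; log2 fold change of 1.58 ± 0.45, SE). Groups failed to overlap in 4.70% of all genes tested, and in 2.37% with CDs higher. In edgeR's quasi-likelihood test with treatment as the only term it did not pass (unadjusted p = 0.0151, adjusted p = 0.994), where 0% of genes passed and 1.03% had an unadjusted p under 0.05, 0.708% of all genes being higher. With the replicate number as a block the log2 fold change was 1.54 ± 0.08 (edgeR adjusted p = 0.0221), in a fit that called 0.0407% of genes (0.0244% higher) and ranked Aldh3b1 at 1 by p. That call was lost without both libraries numbered 1 (1.47 ± 0.09, edgeR adjusted p = 0.260), and over all alternatives the adjusted p ran from 1.06e-30 to 1.00. No other annotated gene overlaps it on either strand in GENCODE M21, all its deposited counts are whole numbers, and counts and FPKM gave the same profile across libraries (RMS log2 deviation of 0.00117, against a median of 0.00552 over 9117 genes).

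**Figure D1:**
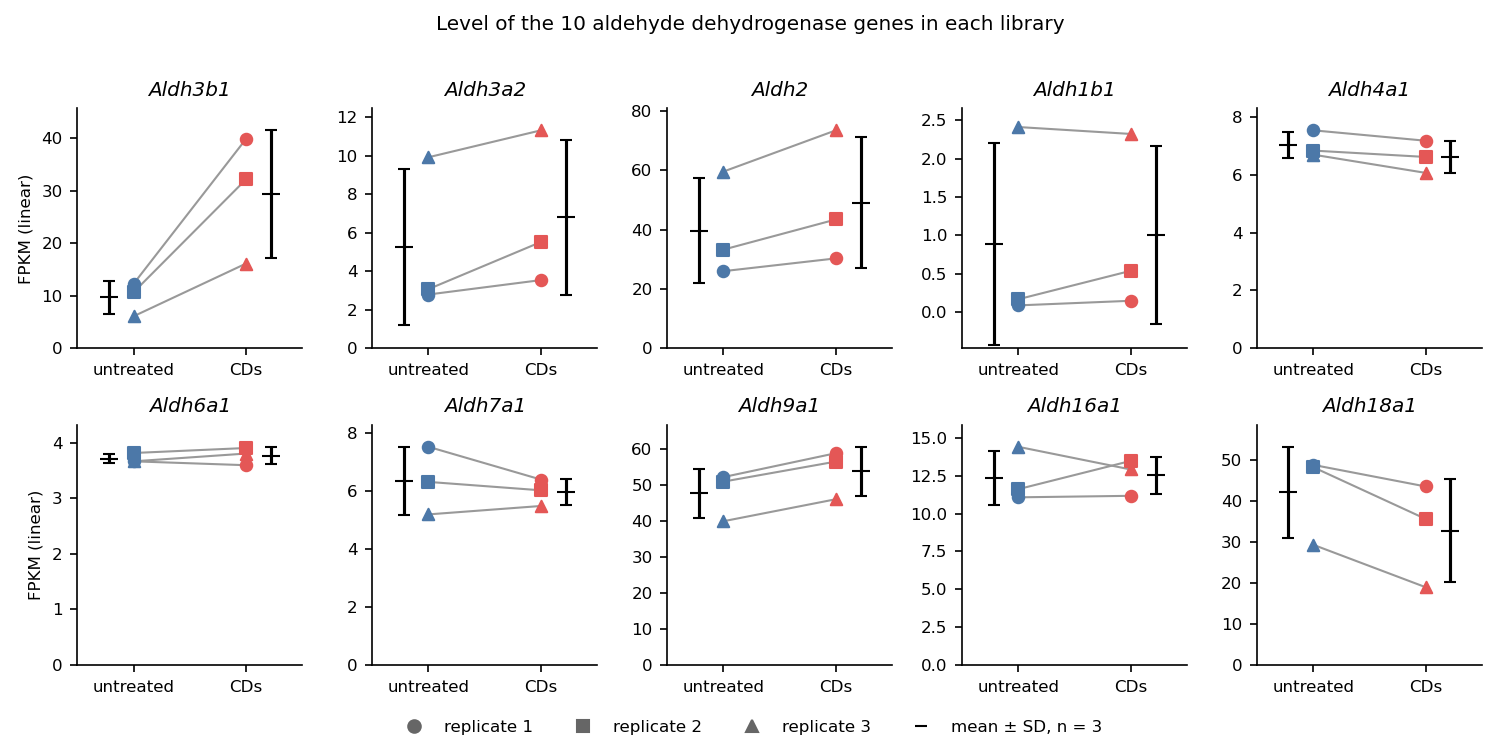
FPKM of each member in untreated (blue) and CDs (red) libraries, with lines joining same-numbered libraries, symbols for replicates 1 to 3, and bars for mean ± SD over 3 libraries; each panel has its own linear axis from 0, apart from Aldh1b1, whose axis starts below 0 to hold the SD bar. Aldh3b1 runs from 6.12 to 12.3 FPKM untreated and from 16.17 to 39.92 FPKM with CDs without overlap, while the groups overlap in the other 9 panels.

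Aldh3b1 varied along the library axis as well as between groups. Within each group the gene was lowest in number 3, where macrophage markers were highest, with log2 differences of -1.08 between untreated 3 and 1 and -1.38 between CDs 3 and 1. Each CDs library lay above every untreated library, in a gene chosen for its rise in these libraries. CDs 1 and untreated 2 had nearly the same score (-53.1 and -47.5) and similar macrophage marker sums (481 and 607 CPM). They were less alike in granulocyte (393 and 863 CPM) and hepatocyte marker sums (373 and 241 CPM). Aldh3b1 measured 165 CPM in CDs 1 and 44.6 CPM in untreated 2, a log2 difference of 1.89. With the axis score as a covariate the log2 fold change was 1.87 ± 0.12 (edgeR adjusted p = 0.000279, with 0.619% of genes called), and with the macrophage marker sum 1.87 ± 0.15 (edgeR adjusted p = 0.00306, with 0.334% called). Both covariates come from the same 6 libraries, and these values describe a gene chosen for its difference in them. Both covariates were also higher in the CDs library of every pair, so covariate and treatment cannot be fully told apart in these fits. Over these libraries log2 CPM of Aldh3b1 had a Pearson correlation of -0.28 with the axis score (n = 6, with numbered pairs sharing much of their deviation). A profile with no overlap, CDs higher, and the lowest value in number 3 of both groups was found in 38 of the 12283 genes (0.309%), which is a description chosen after the values were seen. Endothelial markers (10 of 10 in the tables) also differed without overlap, at 156 to 200 CPM summed in untreated and 336 to 488 CPM in CDs libraries. Most of that sum was Flt1, a receptor of vascular endothelial growth factor, with 158, 144 and 133 CPM untreated and 473, 391 and 252 CPM with CDs. Pecam1 ran from 5.11 to 38.06 CPM untreated and from 7.55 to 47.69 CPM with CDs, and Kdr from 0.67 to 22.62 and from 2.63 to 27.44 CPM, both highest in number 3 of each group. The other 7 markers were at 3.91 CPM or less in every library, Cdh5 the highest of them, with Emcn at 0 in 5 libraries and Tek in 1. The part of endothelial markers in the Aldh3b1 difference was not tested.

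**Figure D2:**
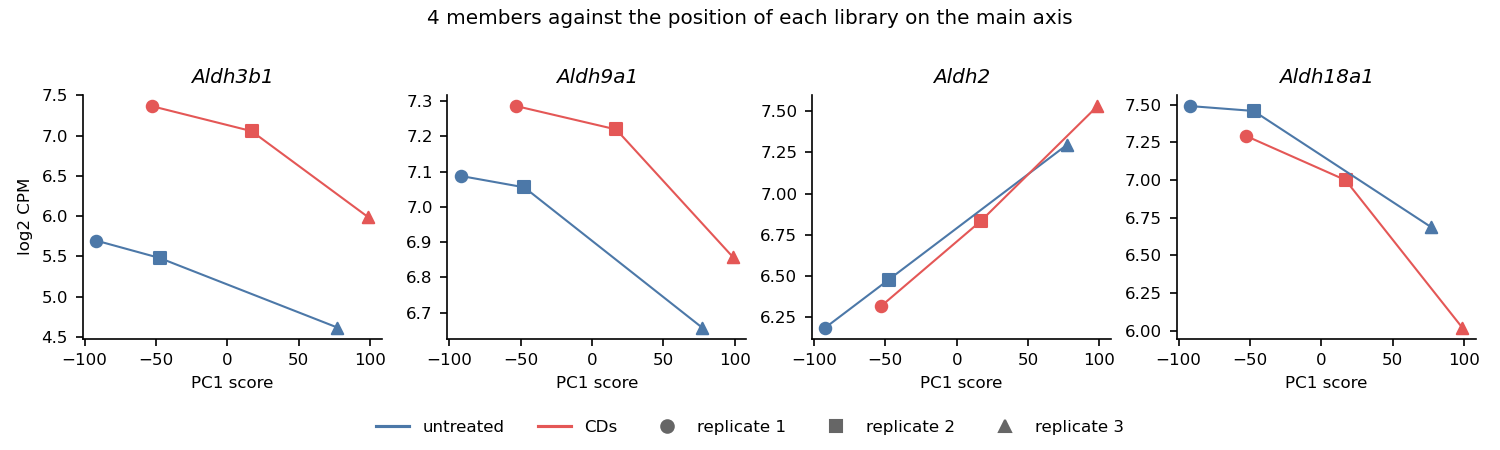
Log2 CPM (vertical axis) of 4 members against the score of each library on the first principal component (horizontal axis, no unit); blue untreated, red CDs, symbols for replicates. In Aldh3b1 the red line lies above the blue one over the range that both groups cover, whereas in Aldh2 both groups lie near one rising line.

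The 5 genes with the most similar profile, by Pearson correlation of log2 CPM with Aldh3b1 over the 6 libraries among 9296 genes of at least 5 CPM, were Egln1 (0.990), Bnip3 (0.987), Hsd17b7 (0.986), Mfsd14a (0.984) and Il6ra (0.981). A correlation above 0.95 was reached by 24 genes. Egln1, an oxygen-sensing prolyl hydroxylase, had 17.05, 13.56 and 10.26 CPM untreated and 49.55, 38.94 and 22.52 CPM with CDs. Bnip3, a mitophagy receptor, had 52.39, 41.34 and 31.37 CPM untreated and 187.92, 155.35 and 66.93 CPM with CDs. Both are textbook targets of hypoxia-inducible factor. All 5 genes, not these alone, shared with Aldh3b1 the lowest level in number 3 of each group. All but Hsd17b7 also shared the absence of overlap. Hsd17b7, an enzyme of cholesterol synthesis, and Il6ra, the interleukin-6 receptor alpha chain, had log2 fold changes with the block of 1.17 ± 0.14 and 1.01 ± 0.14, and Mfsd14a, a membrane transporter homologue, a much smaller one of 0.19 ± 0.06. Of the 5, Egln1 passed in the blocked fit (edgeR adjusted p = 0.0490). The other 4 had edgeR adjusted p-values from 0.0916 to 0.119. These genes were picked for likeness to a gene chosen for its rise, so their differences are descriptions too.

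**Figure D3:**
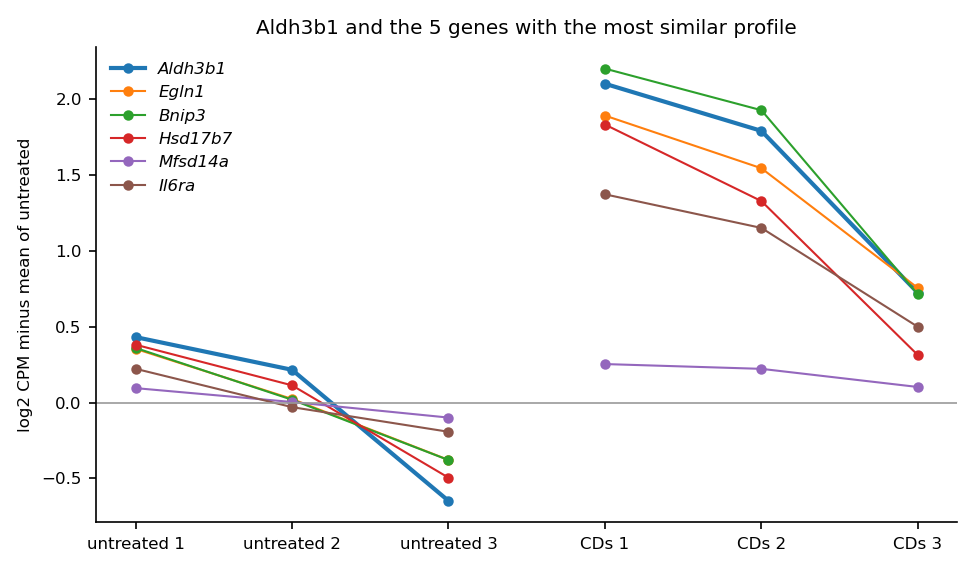
Log2 CPM minus the mean of the untreated libraries (vertical axis) in each library (horizontal axis) for Aldh3b1 (thick line) and the 5 genes of the highest correlation with it. All 6 lines are lowest in number 3 of each group, and Mfsd14a spans a far smaller range than the others.

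Since Egln1 and Bnip3 stood nearest to Aldh3b1, the 250 bases before the RefSeq transcription start (GRCm38.p6) of these 3 genes are shown, 5′ to 3′ on the gene's strand, with the core letters of the hypoxia response element, ACGTG and GCGTG on either strand, in capitals. Adjoining or overlapping matches form one capital run.
Aldh3b1, chr19:3929779-3930028, minus strand: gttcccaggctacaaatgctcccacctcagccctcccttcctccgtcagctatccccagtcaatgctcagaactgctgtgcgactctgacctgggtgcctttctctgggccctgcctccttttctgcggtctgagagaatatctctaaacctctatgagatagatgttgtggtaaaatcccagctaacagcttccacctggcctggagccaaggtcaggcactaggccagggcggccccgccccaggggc
Egln1, chr8:124949255-124949504, minus strand: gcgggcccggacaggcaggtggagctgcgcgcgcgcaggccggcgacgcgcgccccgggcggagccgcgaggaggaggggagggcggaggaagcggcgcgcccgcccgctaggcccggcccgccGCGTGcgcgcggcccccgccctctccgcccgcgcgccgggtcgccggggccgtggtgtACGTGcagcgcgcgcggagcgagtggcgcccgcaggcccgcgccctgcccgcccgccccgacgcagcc
Bnip3, chr7:138909507-138909756, minus strand: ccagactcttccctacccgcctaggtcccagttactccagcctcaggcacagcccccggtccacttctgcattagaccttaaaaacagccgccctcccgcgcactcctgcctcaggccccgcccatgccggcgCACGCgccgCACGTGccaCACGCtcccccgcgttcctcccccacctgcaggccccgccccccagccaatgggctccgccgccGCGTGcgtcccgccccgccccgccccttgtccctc
The Aldh3b1 window held neither core, which says only that these letters are not in these 250 bases; the annotated gene span reaches further upstream, to 3930898. Egln1 had ACGTG at position -68 and GCGTG at -126 from the start. Bnip3 had 1 palindromic CACGTG, which matches ACGTG on both strands, and 3 matches to GCGTG. Of the other members, Aldh3a2, Aldh9a1 and Aldh18a1 held both cores, Aldh16a1 held ACGTG and Aldh4a1 GCGTG, while Aldh1b1 and Aldh6a1 held neither. Aldh2 and Aldh7a1 were not scanned. Of the remaining similar genes, Hsd17b7 held both cores, Il6ra ACGTG and Mfsd14a GCGTG. Among all 32851 promoter windows of this length, 16.6% held ACGTG and 28.2% held GCGTG. The Aldh3b1 window also held no GATAA, the core of GATA factor sites (22.6% of windows), and no TGACNNNGC, the antioxidant response core (10.2% of windows). A match or its absence is a description of letters, not of binding.

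The other fatty and acetaldehyde enzymes followed the library axis. Aldh2, the mitochondrial acetaldehyde dehydrogenase (chromosome 5, 121566027 to 121593824), measured 72.8, 89.1 and 157 CPM in untreated 1 to 3 and 79.6, 114 and 185 CPM in CDs 1 to 3. It was 1.11 log2 units higher in untreated 3 than in untreated 1, and the groups overlapped widely. The CDs library was higher in all 3 pairs, by 0.13, 0.35 and 0.23 log2 units (blocked log2 fold change of 0.24 ± 0.07, edgeR adjusted p = 0.107). Aldh3a2, the fatty aldehyde dehydrogenase of the endoplasmic reticulum (chromosome 11, 61223417 to 61267528), measured 9.25, 9.92 and 30.5 CPM untreated and 11.3, 17.5 and 34.5 CPM with CDs. It too was higher in all 3 pairs, by 0.29, 0.82 and 0.18 log2 units (0.42 ± 0.14, edgeR adjusted p = 0.132). Aldh1b1, a mitochondrial relative of Aldh2 (chromosome 4, 45799022 to 45804608), measured 0.207, 0.409 and 5.47 CPM untreated and 0.343, 1.26 and 5.16 CPM with CDs. This gene had 4 to 8 counts in 3 libraries and entered the test only through untreated 3, CDs 2 and CDs 3. Its blocked log2 fold change was 0.44 ± 0.37 (edgeR adjusted p = 0.464), with a CDs library lower than its partner in pair 3. All 3 of these genes had a correlation of 0.99 with the axis score over the 6 libraries (n = 6), the direction of the macrophage markers. A correlation of at least 0.9 in size with that score was found in 54.2% of all genes tested. With the axis score as a covariate their log2 fold changes were negative, at -0.06 ± 0.08 for Aldh2, -0.03 ± 0.12 for Aldh3a2 and -0.52 ± 0.25 for Aldh1b1 (edgeR adjusted p = 0.935, 0.985 and 0.653). The CDs library scored higher on the axis than its partner in every pair. A treatment difference may thus be taken up by the score, and the 2 cannot be fully told apart. CDs 1 differed from untreated 2, which had nearly the same score, by -0.16, 0.18 and -0.23 log2 units in these genes.

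The proline enzymes ran the opposite way along the axis, with correlations of -0.94 for Aldh18a1 and -0.89 for Aldh4a1 (n = 6), as did Aldh7a1 (-0.96) and, less closely, Aldh9a1 (-0.70). Aldh18a1, the synthetase that makes pyrroline-5-carboxylate from glutamate on the route to proline (chromosome 19, 40550257 to 40588463), measured 180, 176 and 103 CPM in untreated 1 to 3 and 157, 128 and 64.9 CPM in CDs 1 to 3. It was lower in the CDs library of every pair, by -0.19, -0.45 and -0.66 log2 units, while the groups overlapped. The blocked log2 fold change was -0.43 ± 0.10 (edgeR adjusted p = 0.0934, where 8.30% of genes were under 0.10, against -0.39 ± 0.39 and adjusted p = 0.994 without the block), and DESeq2 with the block called it lower (-0.45, adjusted p = 0.0123, in a fit that called 9.85% of genes, 2.09% lower). Untreated 3 differed from untreated 1 by -0.81 log2 units, with no treatment in either. Without the block the value ran from -0.67 without CDs 1 to -0.10 without CDs 3, and was -0.61 without untreated 3, -0.25 without untreated 1 and -0.27 without untreated 2. With the axis score as a covariate the difference was -0.16 ± 0.13 (edgeR adjusted p = 0.880). Here too the score and the treatment cannot be fully told apart. Aldh4a1, the mitochondrial enzyme that closes proline breakdown (chromosome 4, 139622871 to 139649691), measured 25.7, 22.6 and 22.1 CPM untreated and 24.1, 22.1 and 19.0 CPM with CDs. It was lower in all 3 pairs, by -0.09, -0.03 and -0.21 log2 units (blocked log2 fold change of -0.11 ± 0.08, edgeR adjusted p = 0.401).

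The remaining members differed little between groups. Aldh9a1, which makes a carnitine precursor and oxidises aminoaldehydes (chromosome 1, 167349963 to 167368530), measured 136, 133 and 101 CPM untreated and 156, 149 and 116 CPM with CDs. The CDs library was higher by nearly the same factor in each pair, 1.14-fold, 1.12-fold and 1.16-fold, although untreated 1 and 2 lay above CDs 3 (blocked log2 fold change of 0.19 ± 0.05, edgeR adjusted p = 0.110). It was the member whose profile was nearest to that of Aldh3b1, with a correlation of 0.87 over the 6 libraries, against 0.27 or less for the other 8. With the axis score as a covariate its log2 fold change was 0.30 ± 0.08 (edgeR adjusted p = 0.227). Aldh6a1, the methylmalonate semialdehyde dehydrogenase of valine breakdown (chromosome 12, 84430717 to 84451024), was the steadiest member, with 12.5 to 13.5 CPM untreated and 12.6 to 13.7 CPM with CDs. Aldh7a1, antiquitin, which acts in lysine breakdown (chromosome 18, 56524722 to 56572991), measured 24.3, 20.2 and 16.1 CPM untreated and 20.4, 18.9 and 16.4 CPM with CDs. Aldh16a1, an atypical member of the family (chromosome 7, 45141833 to 45154536), had 29.6 to 36.6 CPM untreated and 29.4 to 35.2 CPM with CDs. In the blocked fit these 3 had log2 fold changes of 0.00 ± 0.10, -0.11 ± 0.10 and 0.00 ± 0.10 (edgeR adjusted p = 0.996, 0.481 and 0.991). Aldh6a1, Aldh7a1 and Aldh16a1 carry fractional counts and have annotated genes on the opposite strand (Bbof1 and Pih1d1 among them), as Aldh2 has Gm42879, and no strand-marking step is described, so reads of these neighbours cannot be told apart from theirs. Aldh4a1 and Aldh18a1 overlap annotated genes on their own strand (Gm21969 and Mir7020, and Gm15801), so reads in the shared stretches are uncertain too.

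**Figure D4:**
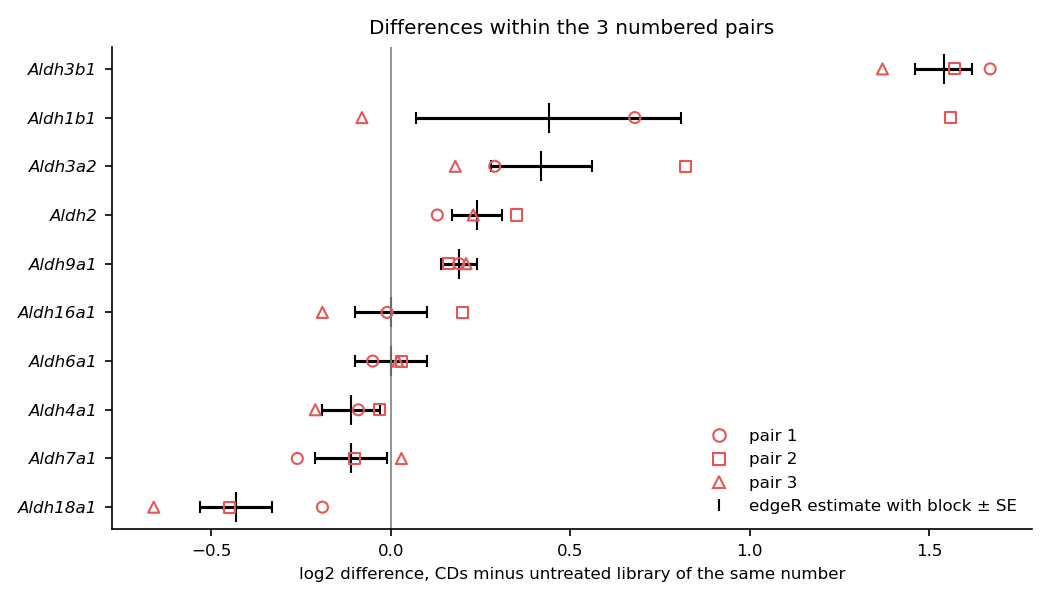
Log2 difference between the CDs and the untreated library of the same number (horizontal axis) for each member (rows), with open symbols for pairs 1 to 3 and black marks for the edgeR estimate with the replicate block ± SE. Aldh3b1 stands at 1.37 to 1.67, and of the others Aldh1b1 exceeds 1 in pair 2 alone.

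The rise of Aldh3b1 was not seen across the family. Of the other 9 members, 0 passed at an adjusted p of 0.05 in edgeR without or with the block, 0 in limma-voom with the block and 1 (Aldh18a1, lower) in DESeq2 with it. At an unadjusted p under 0.05 in edgeR there were 0 of 9 without the block and, with it, 4 of 9, 3 higher (Aldh3a2, Aldh2 and Aldh9a1) and 1 lower (Aldh18a1), where 29.9% of all genes did so, 18.0% higher and 11.9% lower. The CDs library was higher in all 3 pairs for 3 of the 9 (30.2% of all genes) and lower in all 3 for 2 (26.2% of all genes), shares near those of all genes. Their median log2 fold change was 0.00 with and without the block, against 0.01 over all genes in both fits. Whether Aldh3b1 differs from the other members in response was not tested.

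Per length, Aldh9a1 was the most abundant member, at a mean of 50.8 FPKM over the 6 libraries, followed by Aldh2 (44.4), Aldh18a1 (37.4), Aldh3b1 (19.6), Aldh16a1 (12.5), Aldh4a1 (6.82), Aldh7a1 (6.15), Aldh3a2 (6.04), Aldh6a1 (3.75) and Aldh1b1 (0.947). Neighbours in this order overlapped between libraries of a group, apart from Aldh16a1 above Aldh4a1 and Aldh6a1 above Aldh1b1 in both groups, Aldh18a1 above Aldh3b1 in untreated libraries, and Aldh3b1 above Aldh16a1 in CDs libraries. Aldh3b1 made up 7.15%, 6.11% and 3.45% of the summed FPKM of the 10 genes in the untreated libraries numbered 1, 2 and 3, whereas the CDs libraries of those numbers had 19.5%, 15.8% and 8.22%. Aldh2 and Aldh18a1 exchanged order along the axis. Aldh2 went from 15.1% in untreated 1 to 33.6% in untreated 3 and from 14.8% in CDs 1 to 37.4% in CDs 3, and Aldh18a1 from 28.3% to 16.5% and from 21.2% to 9.63%. The summed level of the 9 genes other than Aldh3b1 nonetheless stayed within 484 to 495 CPM in untreated and 486 to 499 CPM in CDs libraries, with means of 490 ± 5.34 and 492 ± 6.81 CPM (SD, n = 3). In FPKM the same sum ran from 160 to 171 untreated and from 165 to 180 with CDs, highest in number 3 of both groups. With Aldh3b1 the sum was 543, 539 and 509 CPM untreated and 656, 632 and 549 CPM with CDs.

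**Figure D5:**
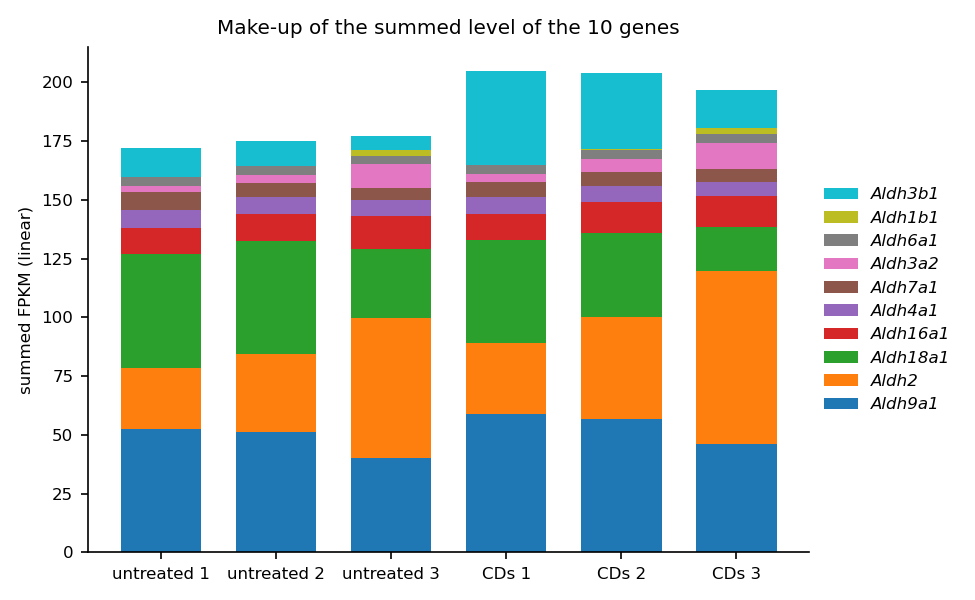
Summed FPKM of the 10 members in each library (bar height, linear axis from 0), divided by gene. The top segment, Aldh3b1, is larger in every CDs bar, and the segments of Aldh2 and Aldh18a1 widen and narrow from number 1 to number 3 in both groups.

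Of the 11 other genes whose symbols start with Aldh, 7 did not pass the filter (Aldh1a2, Aldh1a3, Aldh1a7, Aldh3a1, Aldh3b2, Aldh3b3 and Aldh8a1), each at 0.26 FPKM or less in every library. Aldh3b2 and Aldh3b3, the close relatives of Aldh3b1 on the same stretch of chromosome 19, had at most 5.63 and 5.65 counts in any library. Aldh1a1, a cytosolic retinaldehyde dehydrogenase, measured 4.80, 8.54 and 7.77 CPM untreated and 3.66, 4.83 and 4.63 CPM with CDs. It was lower in all 3 pairs, opposite to Aldh3b1, with overlapping groups (blocked log2 fold change of -0.67 ± 0.16, edgeR adjusted p = 0.0961). Aldh1l1, the cytosolic formyltetrahydrofolate dehydrogenase, measured 15.4, 0.870 and 3.81 CPM untreated and 17.9, 3.52 and 9.55 CPM with CDs. Both libraries numbered 1 were high and both numbered 2 low. Hepatocyte markers (12 of 13 in the tables) summed to 308, 241 and 537 CPM untreated and 373, 377 and 717 CPM with CDs. That sum was highest in number 3 of both groups and, among untreated libraries, lowest in number 2. The part of hepatocyte markers in the Aldh1l1 levels was not tested. The blocked log2 fold change of Aldh1l1 was 0.98 ± 0.36 (edgeR adjusted p = 0.164, and adjusted p = 0.0394 in DESeq2 with the block). Aldh1l2, its mitochondrial counterpart, and Aldh5a1, the succinate semialdehyde dehydrogenase, had 7 to 15 counts per library and log2 fold changes of 0.34 ± 0.35 and 0.19 ± 0.33 with the block. None of the 4 tested passed in edgeR or limma-voom with or without the block. At an unadjusted p under 0.05 in edgeR there were 0 without the block (1.03% of all genes) and 2 with it (29.9% of all genes). DESeq2 with the block called 1 of the 4, Aldh1l1, in a fit that called 9.85% of all genes.

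Neighbouring pathways were described from 7 lists of other genes. In edgeR none of their members passed an adjusted p of 0.05 with or without the block, and limma-voom called 0 in each with or without the block. An unadjusted p under 0.05 without the block was reached in edgeR by 1 gene of the fatty aldehyde list, 1 of the lipid peroxide list and 0 of the other 5 lists. Counts at an unadjusted p under 0.05, log2 fold changes ± SE and list medians are therefore given from the blocked edgeR fit, where 29.9% of all genes were under that p and the median of all genes was 0.01. The DESeq2 fit with the block, whose calls are given beside them, called 9.85% of all genes. Of 13 tested aldehyde reductases and alcohol dehydrogenases 4 were past it, all higher (DESeq2 with the block called 0, list median 0.23). They were Akr1b8 (1.53 ± 0.40), Akr1b10 (0.48 ± 0.13), Akr1b3, aldose reductase (0.31 ± 0.09), and Akr1a1, aldehyde reductase (0.34 ± 0.10). All 4 also rose along the axis, with correlations of 0.96, 1.00, 0.91 and 0.97 with its score in that order (n = 6). A size of at least 0.9 was found in 54.2% of all genes tested. Akr1a1, for example, was at 172.72, 171.28 and 435.68 CPM untreated and 182.20, 249.83 and 570.90 CPM with CDs. Of 21 genes of fatty aldehyde and sphingolipid breakdown 5 were higher and 2 lower (DESeq2 with the block called 5, list median 0.08), among them Asah1, acid ceramidase (1.27 ± 0.24), Agps, an ether lipid enzyme (0.39 ± 0.06), Acsl4, an acyl-CoA synthetase (0.50 ± 0.10), and Sphk1, a sphingosine kinase (-0.38 ± 0.07). Asah1 rose along the library axis, from 13.23 CPM in untreated 1 to 138.96 in untreated 3 (correlation of 0.98 with the score). Agps (0.93) and, less closely, Acsl4 (0.77) also rose along it, and Sphk1 fell (-0.87).

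Of 12 proline and ornithine genes 2 were higher and 2 lower (DESeq2 with the block called 2, list median -0.05). Pycr1, a reductase that follows Aldh18a1 in proline synthesis, was among the lower ones (-0.37 ± 0.07). It ran down the axis with Aldh18a1, at 55.23, 52.49 and 34.15 CPM untreated and 42.52, 42.91 and 24.88 CPM with CDs. The higher ones were Glud1, glutamate dehydrogenase (0.46 ± 0.11), and Asl, argininosuccinate lyase (0.58 ± 0.16). Both rose along the axis, with correlations of 0.97 and 0.98 with its score. Of 24 genes of valine, leucine and isoleucine breakdown 1 was higher and 5 lower (DESeq2 with the block called 0, list median -0.06), with Ppm1k at 0.96 ± 0.26, Acat1 at -0.23 ± 0.06, Hsd17b10 at -0.24 ± 0.07 and Bckdk at -0.19 ± 0.06. Ppm1k rose along the axis (correlation of 0.88), and Acat1, Hsd17b10 and Bckdk fell along it (-0.91, -0.94 and -0.94). Of 10 genes of lysine breakdown and carnitine synthesis and use 3 were higher and 3 lower (DESeq2 with the block called 1, list median 0.09). Cpt1a, the carnitine palmitoyltransferase of the outer mitochondrial membrane, had 0.62 ± 0.10, Tmlhe, an enzyme of carnitine synthesis, 0.67 ± 0.18, Slc25a20, the carnitine carrier, 0.26 ± 0.09 and Phykpl -0.30 ± 0.10. Cpt1a, Tmlhe and Slc25a20 rose along the axis (correlations of 0.99, 0.96 and 0.97), and Phykpl fell along it (-0.95).

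Of 20 crosslink repair genes, which mend the DNA damage that aldehydes cause, 0 were higher and 3 lower (DESeq2 with the block called 0, list median -0.15), among them Ube2t (-0.31 ± 0.07) and Fanci (-0.21 ± 0.08). Fancc followed with -0.22 ± 0.09. Ube2t, Fanci and Fancc fell along the axis, with correlations of -0.9, -0.93 and -0.93 with its score. Of 22 genes that handle lipid peroxides or conjugate aldehydes 3 were higher and 5 lower (DESeq2 called 4 with the block and 1 without it, list median -0.07). Hmox1, heme oxygenase, had 1.70 ± 0.24 without overlap between groups, Gstm5, a glutathione transferase, 0.46 ± 0.09, Glo1, which removes methylglyoxal, -0.29 ± 0.06, and Prdx6, a peroxiredoxin, -0.25 ± 0.06. Glo1 and Prdx6 fell along the axis (correlations of -0.96 and -0.98 with its score), Gstm5 less closely (-0.65), and Hmox1 had 0.47. Hmox1 differed from Aldh3b1 in that it varied little among CDs libraries, at 16.08, 15.60 and 14.85 CPM against 4.03, 3.58 and 7.08 CPM untreated. The part of macrophage markers in these pathway values was not tested.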

How the data were processed

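RNA of 6 libraries, 3 untreated and 3 treated with CDs, was analysed from 2 deposited tables. One holds expected counts estimated by the authors, not normalized (30.1% not whole), which were rounded here before any count test. The other holds FPKM made by the authors, a unit worked out from the values, used for levels between genes and in 1 alternative. Per the submitters' processing notes, the build was GRCm38.p6 and the tools named, without a role, were RSEM 1.2.12, HISAT2 2.0.4, DESeq2 1.4.5 and Bowtie2 2.2.5. Coordinates and promoters are from RefSeq (GRCm38.p6, matched by Entrez number for 99.3% of genes; 13 of 14 promoters looked for were found), 1-based. Overlapping genes are from GENCODE M21.

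Genes were filtered with filterByExpr and their totals scaled by TMM. The test was the robust quasi-likelihood fit of edgeR 4.0.16 under R 4.3.3, whose only term was treatment, adjusting by Benjamini and Hochberg over 12283 genes (threshold 0.05). CPM use TMM-scaled totals, log values a prior count of 0.5. Each SE given with an edgeR value was worked back from the test, as the size of the log2 fold change divided by the square root of its F statistic. Alternatives were the replicate block, DESeq2 1.42.0, limma 3.58.1 (voom, and log2 of FPKM plus 0.5), other scaling, no filter, axis and macrophage covariates, and libraries or pairs left out. Deviations from group means correlated at 0.89, 0.30 and 0.92 for numbers 1 to 3, all above 0.1, so the numbers were taken to pair the libraries, although untreated 2 correlated more with CDs 1 (0.61). Both groups were ordered 1 to 3 along the axis that held 86.6% of the variance. That order alone makes numbers 1 and 3 correlate, so this check cannot show that the libraries were paired. Counts were simulated from these pairs for 12283 genes, with 100 changed 2-fold and another 100 by 1.5 log2 units. Of the 2-fold changes edgeR recovered 0% without the block and 94.9% with it, the latter with 5 false calls. The simulation gave both libraries of a number one mean. Its spread was set near the blocked fit's common coefficient of variation of 0.112 in the data (0.485 without the block). It therefore assumed the pairing and cannot show that the block suits these data. Totals of 17695997 to 20066581 leave genes of a few counts imprecise. The members and lists were chosen with earlier results of these data known. All members are named, and up to 4 genes per pathway list, by the smallest unadjusted p in the blocked fit at a mean of at least 1 CPM; some genes that this rule names are not reported here.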

Additional observations from a re-analysis of the deposited data

How the results depend on the processing

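The log2 fold change of Aldh3b1 stayed positive in all 20 alternatives, from 1.28 to 1.89, and without 1 library in turn it ran from 1.28 to 1.89 (0 genes called in each of these 6 fits, and 0 members). It passed with the replicate block in edgeR (1.54), DESeq2 (1.52) and limma-voom (1.55), with the block and without both libraries numbered 2 (1.5) or 3 (1.6), and with the axis score or macrophage marker covariate (1.87 each). It did not pass in the other 13, which are the block without both libraries numbered 1, the fits without 1 library and, all without the block, DESeq2 (adjusted p = 0.855), limma-voom (0.971), RLE scaling (0.986), library totals (0.998), no filter (0.991) and limma on FPKM (0.980). The count of genes called, 0 without the block, was 5 with the replicate block, 14 in DESeq2, 1210 in DESeq2 with the block, 6 in limma-voom with the block, 41 and 76 with the macrophage and axis covariates, and with the block 0, 899 and 1835 without numbers 1, 2 and 3. Of the other 9 members 1, Aldh18a1, passed in DESeq2 with the block and with the block without number 2 or 3. The cause of these differences between fits was not tested. Signs turned with the macrophage and axis covariates for Aldh3a2 (-0.02 and -0.03), Aldh2 (-0.06 in both), Aldh1b1 (-0.46 and -0.52) and Aldh7a1 (0.01 in both). Both covariates were higher in the CDs library of every pair, so these fits may take up part of a treatment difference. Without 1 library in turn Aldh3a2 ran from -0.20 to 1.14, Aldh2 from -0.14 to 0.64, Aldh1b1 from -1.33 to 2.85 and Aldh7a1 from -0.26 to 0.03, negative without CDs 3 in the case of Aldh3a2 and Aldh2. The summed level of the 10 genes had a log2 ratio of 0.21, of 0.20 within pairs (replicate block), 0.01 without Aldh3b1, and 0.16 to 0.28 without 1 library. Aldh1b1 had 4 to 8 counts in 3 libraries, so its values are the least precise.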
